A study of Homo sapiens with 4 samples.

Results

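The mRNA levels of 10 genes encoding splicing regulators linked to purine-rich exonic enhancers were followed in HCT116 cells, a human colorectal cancer line, after transfection of an antisense oligonucleotide (ASO) against GAA repeats. They are the 2 Tra2 genes TRA2A and TRA2B and the 8 SR protein genes SRSF1, SRSF2, SRSF3, SRSF4, SRSF5, SRSF6, SRSF7 and SRSF11. The 10 genes were listed by symbol, at a time when earlier results of these data were known, and all 10 were found among the 63677 genes counted and passed the filter on low counts. The RNA-seq comprised 2 libraries of cells transfected with the anti-GAA ASO and 2 of cells transfected with a control ASO, with no untreated library. The anti-GAA ASO is complementary to tandem GAA repeats over 21 nt and carries a DNA core that directs RNase H to the paired RNA. The control ASO is described by the study as a scramble. The labels give a transfection of 48 h, while the study's methods give a shorter one. The labels name a total RNA kit and the methods a stranded mRNA kit.

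SR proteins join RNA recognition motifs to a domain rich in arginine and serine. They bind exonic splicing enhancers and help to place U1 and U2 components at the neighbouring splice sites. Tra2 proteins and SRSF1 are known for GAA- and GA-rich enhancers, whereas SRSF2 and SRSF3 also have well-known preferences for other sequences, so the shared name of the group is background and was not measured here. Many SR protein genes limit their own output by including a poison exon, which sends the transcript to nonsense-mediated decay. The values below are counts per gene, so productive and unproductive transcripts were summed.

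The question was whether the mRNAs of these factors moved when an oligonucleotide against GAA repeats, a kind of sequence that some of them bind, was present. The genes differ first in whether their own transcripts hold GAA repeats. The longest unbroken GAA repeat, whatever base of the triplet it began with, was measured on the sense strand of the longest GENCODE 44 transcript of each gene. For TRA2B, SRSF4, SRSF5 and SRSF11 that transcript is annotated as noncoding. The same transcripts gave the alternative gene length used below. SRSF4 held 15 nt, SRSF11 13 nt and SRSF7 10 nt, and the other 7 genes held 6 to 8 nt. The runs of these 3 genes are shown beside that of TRA2B, as an example of a short one, with the run in capitals and flanking bases in lower case.
SRSF4: gcagcagcAAGAAGAAGAAGAAGgaagaca
SRSF11: caacaagcAAGAAGAAGAAGAgtaaagat
SRSF7: cagccggcGAAGAAGAAGcaggtttc
TRA2B: ctagatccAGAAGAAGctcccgaa

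All 4 runs lie in coding sequence of the canonical transcript. On GRCh38, that of SRSF4 is at chr1:29148707-29148721 on the minus strand, in exon 6 of 6, and that of SRSF11 at chr1:70250435-70250447 on the plus strand, in exon 11 of 12. The run of SRSF7 is at chr2:38749532-38749541 on the minus strand, in exon 3 of 8, and that of TRA2B at chr3:185925609-185925616 on the minus strand, in exon 3 of 9. Runs of at least 12 nt were found in 2 of the 10 genes, and the number was also 2 when all annotated transcripts or the whole gene with its introns were searched. Among the 14751 tested genes with a transcript sequence, 1.89% held 12 to 14 nt and 0.637% held 15 nt or more.

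The ASO may pair with mismatches, so each transcript was also compared at every position with 21 nt of GAA repeat beginning at G. The best window matched at 17 positions in SRSF4, at 16 in SRSF11 and TRA2A, and at 14 or 15 in the other genes, against a median of 14 over tested genes. A match of at least 16 positions was found in 3 of the 10 genes and in 17.4% of tested genes. These 3 windows are shown with matching bases in capitals.
SRSF4: cAgcAAGAAGAAGAAGAAGgA
SRSF11: GAcGAcGAcGAAGAAGcAGgA
TRA2A: GAAGAAtgAagAGAAGtAGAA

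The window of TRA2A, at chr7:23522183-23522203 on the minus strand, lies in exon 3 of 10 of the longest transcript, in an exon that the canonical transcript lacks. The windows of SRSF4 (chr1:29148705-29148725, minus strand) and SRSF11 (chr1:70249957-70249977, plus strand) lie in coding exons. A match is a property of the sequence alone and does not show that the ASO bound there.

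Library totals ranged from 10538284 to 17894953 counts. Markers of colorectal epithelium (EPCAM, CDH1, KRT8, KRT18, KRT19 and VIL1) summed to between 2552 and 2893 CPM (counts as a rate of the TMM-adjusted library total). Of these 6 markers, 5 passed the filter on low counts. Markers of blood, fibroblast, endothelium and liver summed to between 10.2 and 15.1 CPM, with CD3E, COL1A2 and PECAM1 at 0 in all libraries. Of these other 6 markers, 1 passed the filter. The 10 genes received 344 to 10737 counts per library, and together 0.272% to 0.316% of all counts.

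Compared per kilobase of exon (RPKM, with the union of annotated exons as the length), SRSF2 had the highest mean level at 145 RPKM, followed by SRSF7 at 120 RPKM. SRSF1, at 86.3 RPKM, and SRSF3, at 85.9 RPKM, came next. SRSF6 was at 48.9, SRSF5 at 39.6 and SRSF11 at 19.6 RPKM, while TRA2A, SRSF4 and TRA2B were lowest at 8.91, 8.48 and 7.57 RPKM. The ranges over the 4 libraries overlapped between SRSF2 and SRSF7, between SRSF1 and SRSF3, between SRSF6 and SRSF5, and among the last 3 genes. Compared within each library, SRSF6 was above SRSF5 and SRSF4 above TRA2B in 4 of 4, SRSF2 was above SRSF7 in 3 of 4, and SRSF1 above SRSF3 and TRA2A above SRSF4 in 2 of 4. With the length of the longest transcript in place of the exon union, SRSF7 came first at 170 RPKM and SRSF2 second at 149 RPKM, and TRA2B was at 22.1 RPKM, above TRA2A at 14.1 RPKM. SRSF3 was then at 145 RPKM, above SRSF1 at 93.4 RPKM, and SRSF5 at 69.6 RPKM was above SRSF6 at 55.0 RPKM, while SRSF11 was at 41.4 RPKM. The order thus depended on the length used at several places, the top and the lowest group included.

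The comparison of the anti-GAA with the control ASO called none of the 10 genes. In edgeR's quasi-likelihood test over 15116 genes, with condition as the only term, 0 of the 10 had an adjusted p under 0.05. The background was 0% of all tested genes. With the replicate number as a block the background was 1.71%, again with 0 of the 10. The edgeR values that follow are from the fit without the block, unless said otherwise. At an unadjusted p under 0.05 the count was 0 of 10, against 4.48% of tested genes, and DESeq2 also called 0 of 10 with adjustment (0.0331% of tested genes) and 0 of 10 without it (2.76%). The smallest unadjusted p among the 10 was 0.370, for SRSF5, and the adjusted p was 0.996 for each gene. The signs were balanced, since 5 genes had a log2 fold change above 0 (51.6% of tested genes) and 5 had one below. The median was −0.0050, against 0.013 for all tested genes. The fold changes lay between −0.17 and 0.19 on the log2 scale, with a median absolute value of 0.084, against 0.21 over tested genes. The median standard error was 0.21 for the 10 genes and 0.29 over tested genes. The 10 were thus measured more precisely than most, and were not compared with genes of similar level. The methods speak of duplicate experiments, but neither they nor the labels say whether the libraries came from separate cultures, so p-values measure the spread between these libraries, which may be technical.

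**Figure D1:**
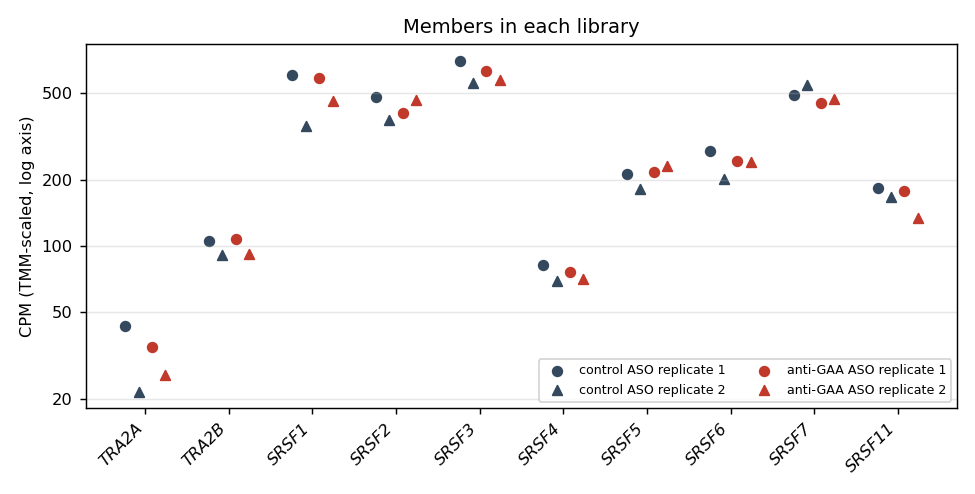
TMM-scaled CPM (log axis) of each gene in the 4 libraries, with control libraries in dark blue, anti-GAA libraries in red, circles for replicate 1 and triangles for replicate 2. In 6 of the 10 genes both red points sit between the control points, and the widest gap between control points is that of TRA2A, from 43.1 to 21.7 CPM.

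In the values that follow, replicate 1 of each group comes before replicate 2. The Tra2 proteins bind GAA-rich enhancers directly and activate the exons that carry them. TRA2A had 34.8 and 25.8 CPM in the anti-GAA libraries and 43.1 and 21.7 CPM in the controls. Both anti-GAA libraries lay between the control libraries, which differed 1.99-fold from each other. The log2 fold change of TRA2A was −0.10 (standard error 0.35, 95% interval −0.93 to 0.73), the least precise of the 10. With the replicate number as a block, the log2 fold change of TRA2A was −0.033 (standard error 0.17).

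TRA2B, its paralog, had 108 and 92.3 CPM in the anti-GAA libraries and 105 and 90.9 CPM in the controls. Within each replicate number the TRA2B values were nearly the same under both ASOs, and the groups overlapped. Its log2 fold change was 0.028 (standard error 0.20), with a 95% interval from −0.45 to 0.51. The ratio of TRA2B to TRA2A, both in RPKM by exon union, was 0.833 and 0.962 in the anti-GAA libraries and 0.655 and 1.13 in the controls. The anti-GAA ratios thus also lay between those of the control libraries. By the longest transcript, the mean of TRA2B was 22.1 RPKM and that of TRA2A 14.1 RPKM, so which was higher depended on the length used.

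SRSF1, SRSF2, SRSF3 and SRSF7 were the most abundant of the SR protein genes. SRSF1, which acts both in constitutive and in alternative splicing, had 583 and 460 CPM in the anti-GAA libraries and 599 and 354 CPM in the controls. Again the control libraries spanned the anti-GAA ones. The log2 fold change of SRSF1 was 0.13 (standard error 0.29, 95% interval −0.56 to 0.81), and was 0.54 without replicate 1 of the control ASO and −0.19 without replicate 2 of the control ASO.

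SRSF2 stays in the nucleus, unlike several SR proteins that shuttle. Its values were 406 and 464 CPM in the anti-GAA libraries and 478 and 375 CPM in the controls, so that its log2 fold change was 0.027 (standard error 0.21, 95% interval −0.47 to 0.53). Here replicate 1 was the lower of the anti-GAA libraries and the higher of the control libraries. SRSF2 overlaps MFSD11 on the opposite strand over 1469 nt in GENCODE 44, and MFSD11 had 206 to 454 counts against 4015 to 8251 for SRSF2. ENSG00000267168, also on the opposite strand, overlaps SRSF2 over 3219 nt. On the same strand as SRSF1, ENSG00000266086 overlaps that gene over 6328 nt. Both of these overlapping genes had 0 counts in all libraries. Whether reads were counted by strand, and how reads shared by overlapping genes were assigned, is not given in the sources used here.

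SRSF3, the smallest SR protein and a binder of pyrimidine-rich sequences, had 626 and 568 CPM in the anti-GAA libraries and 700 and 552 CPM in the controls. The anti-GAA libraries lay inside the range of the controls, with a log2 fold change of −0.068 (standard error 0.21, 95% interval −0.56 to 0.43). SRSF7, which shuttles and takes part in mRNA export and 3′ end choice, had 447 and 467 CPM in the anti-GAA libraries and 486 and 542 CPM in the controls. SRSF7 was lower in both anti-GAA libraries than in either control library. The difference was a log2 fold change of −0.17 (standard error 0.19, 95% interval −0.61 to 0.28), which did not pass the test.

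SRSF5 and SRSF6, like SRSF4, have a pair of RNA recognition motifs and bind purine-rich or related enhancers. SRSF5 had 218 and 232 CPM in the anti-GAA libraries and 214 and 183 CPM in the controls. It was the only gene of the 10 with both anti-GAA libraries above both controls, at a log2 fold change of 0.19 (standard error 0.19, 95% interval −0.27 to 0.64). Groups that did not overlap were found for 1 of 10 genes in the upward direction, against 15.5% of tested genes, and for 1 of 10 downward, against 16.9%. SRSF6 had 243 and 242 CPM in the anti-GAA libraries, which lay between 270 and 201 CPM in the controls. Its log2 fold change was 0.040 (standard error 0.21, 95% interval −0.47 to 0.55).

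SRSF4 and SRSF11 are the genes with GAA runs of at least 12 nt. SRSF4 had 76.5 and 70.9 CPM in the anti-GAA libraries and 81.8 and 69.3 CPM in the controls. Both anti-GAA libraries lay inside the control range, and the log2 fold change was −0.037 (standard error 0.20, 95% interval −0.51 to 0.44). SRSF11, a less typical SR protein that binds U1 and U2AF components, had 178 and 134 CPM in the anti-GAA libraries and 184 and 167 CPM in the controls. The groups of SRSF11 overlapped, although each anti-GAA library was below the control library of its number. Its log2 fold change was −0.17 (standard error 0.22, 95% interval −0.68 to 0.34), and was 0.019 without replicate 2 of the anti-GAA ASO.

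Set against other genes with runs of similar length, SRSF4 stood toward the upper end. The 94 tested genes with a run of 15 nt or more had a median log2 fold change of −0.42, with quartiles at −0.73 and −0.089, and 84.0% were below 0. Of these 94 genes, 74 (78.7%) had a lower value than SRSF4. The 278 genes with 12 to 14 nt had a median of −0.11, and 117 of them (42.1%) lay below SRSF11. SRSF7, with a run of 10 nt, was at −0.17, where the 2540 genes with 9 to 11 nt had a median of −0.0365 and 55.9% were below 0. No difference between SRSF4 and the other genes of its class was tested. The 7 genes with short runs lay in the range −0.10 to 0.19, where the median of tested genes with a run under 9 nt was 0.030.

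**Figure D2:**
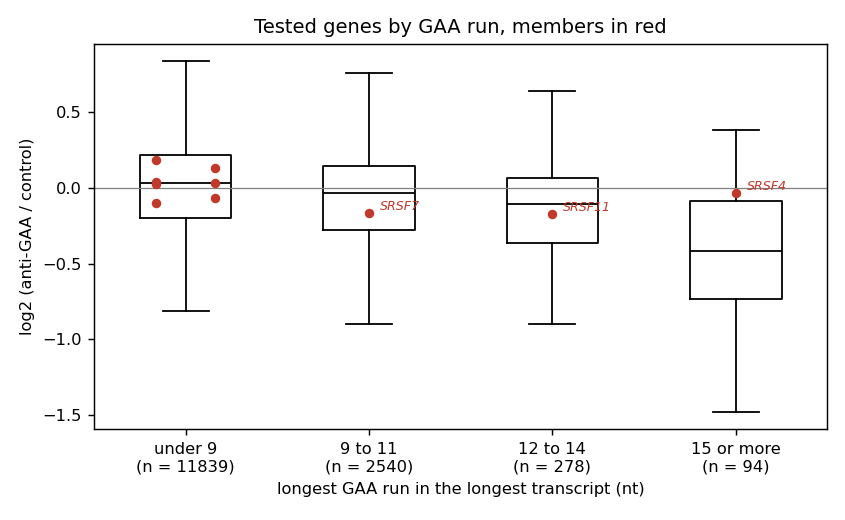
Log2 fold change (anti-GAA over control, edgeR) of tested genes by the longest GAA run in nt of the longest transcript. Boxes span the quartiles with the median as a line, whiskers reach the last value within 1.5 times the box, points beyond are not drawn, and red points are the 10 genes. The median falls from 0.030 under 9 nt to −0.42 at 15 nt or more, where SRSF4 sits above the upper quartile at −0.037.

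The libraries numbered 1 and those numbered 2 gave opposite pictures for most of the 10 genes. Between libraries numbered 1, 8 of 10 were lower with the anti-GAA ASO (50.5% of tested genes), and the median difference in log2 CPM was −0.11. Between libraries numbered 2, 2 of 10 were lower (47.8% of tested genes), and the median difference was 0.14. The signs were opposite in 6 of 10 genes, against 38.2% of tested genes. The 4 genes that kept their sign were TRA2B and SRSF5, higher with the anti-GAA ASO in both, and SRSF7 and SRSF11, lower in both. In SRSF2 the differences in log2 CPM were −0.24 and 0.31, and in TRA2A −0.31 and 0.25.

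**Figure D3:**
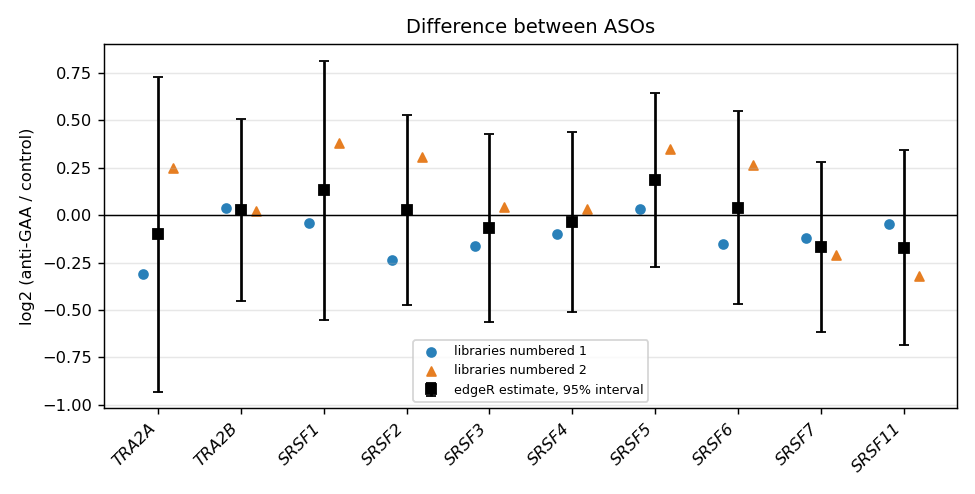
Difference between ASOs on the log2 scale (anti-GAA over control). Black squares are edgeR estimates with 95% intervals, and blue circles and orange triangles are differences in log2 CPM between libraries numbered 1 and 2. Every interval includes 0, and the circle and the triangle lie on opposite sides of 0 for 6 genes.

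The control libraries were at the extremes for most of the 10 genes. Replicate 1 of the control ASO was the highest of the 4 libraries in 7 of 10 genes (22.3% of tested genes), and replicate 2 of the control ASO was the lowest in 8 of 10 (26.7%). Both held together in 6 of 10 genes (7.11% of tested genes), namely TRA2A, SRSF1, SRSF2, SRSF3, SRSF4 and SRSF6. Such an order fixes opposite signs between the numbers, so this count restates the opposite signs of these genes and is no separate result. Summed over the 10 genes, the controls had 3162 and 2555 CPM, a 1.24-fold difference, and the anti-GAA libraries had 2921 and 2756 CPM in between. The pattern was seen after the values were known and was not tested, and whether it reflects the cultures or the libraries cannot be told apart.

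Differences between replicate numbers were larger than those between ASOs in 8 of 10 genes, all but SRSF5 and SRSF7, and in 59.2% of tested genes. The median absolute difference in log2 CPM was 0.22 between replicate numbers and 0.057 between ASOs for the 10 genes, and 0.29 and 0.21 for tested genes. TRA2A differed most between numbers, by −0.71 (replicate 2 minus replicate 1), followed by SRSF1 at −0.55. SRSF7 was the only gene of the 10 that was higher in replicate 2 on average, by 0.11.

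**Figure D4:**
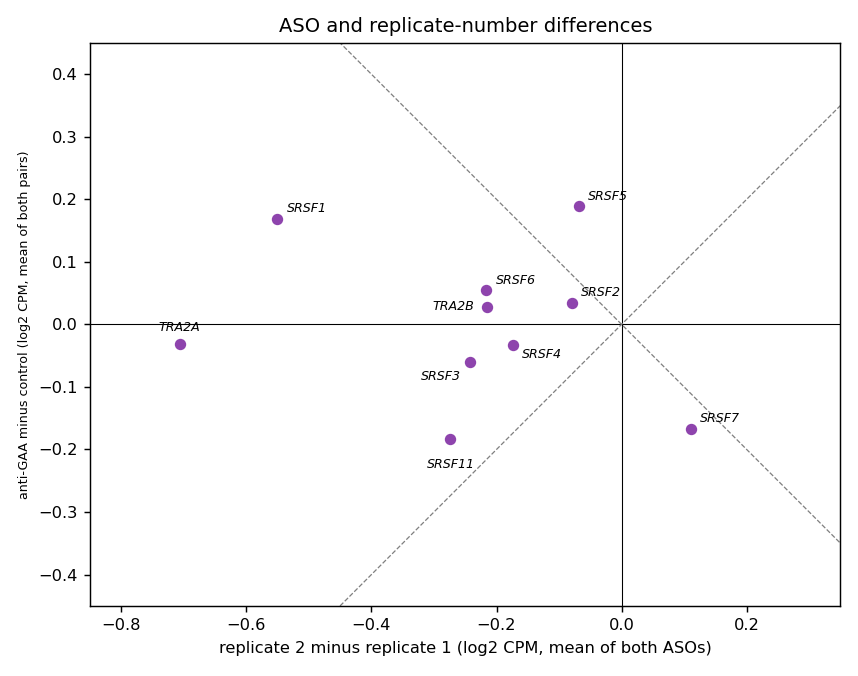
Each point is a gene, placed by its difference between replicate numbers (x axis, replicate 2 minus replicate 1, mean of both ASOs) and between ASOs (y axis, anti-GAA minus control, mean of both replicate numbers), both in log2 CPM. Dashed lines mark equal size, and 8 of 10 genes lie in the sectors where the difference between replicate numbers is the larger one.

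The share of each gene in the summed RPKM of the 10 varied within groups as well. SRSF2 contributed 23.8% and 27.7% in the anti-GAA libraries and 25.5% and 24.5% in the controls. SRSF1 contributed 17.6% and 14.2% in the anti-GAA libraries and 16.5% and 11.9% in the controls. The share of SRSF7 was 19.3% and 20.6% against 19.1% and 26.0%, so the highest share of SRSF7 was in replicate 2 of the control ASO. The Tra2 genes and SRSF4 each stayed between 1.20% and 1.95%.

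The intervals give the range of differences in which each gene's value may lie. Taken over the 10 genes in the fit without the block, the 95% intervals ran from 0.525-fold to 1.76-fold. Without TRA2A and SRSF1, the least precise in that fit, they ran from 0.622-fold to 1.56-fold. With the replicate number as a block, the intervals were narrower. On the log2 scale they then ran from −0.49, the lower bound of SRSF11, to 0.50, the upper bound of SRSF1. The narrowest interval without the block was that of SRSF7, from 0.653-fold to 1.21-fold. With the block it was that of TRA2B, from −0.26 to 0.32 on the log2 scale. An interval that includes 0 on the log2 scale does not show that a gene was unaffected. The number of genes above 0, 5 with all libraries, was 3 when anti-GAA replicate 1 was left out, 8 when anti-GAA replicate 2 or control replicate 1 was, and 1 when control replicate 2 was.

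Other splicing genes, in 6 lists of 98 genes of which 95 were tested, gave 0 calls at an adjusted p under 0.05 in edgeR, while without adjustment 4 were lower (3.46% of tested genes) and 1 was higher (1.02%). DESeq2 called 0. Of the remaining SR protein genes SRSF8, SRSF9, SRSF10 and SRSF12, 2 were tested. SRSF9 had 288 and 337 CPM in the anti-GAA libraries and 273 and 274 CPM in the controls, so that its log2 fold change was 0.19 (standard error 0.19). SRSF10 had under 1 CPM in every library. The gene models used for counting could not be checked, so this count may not give the level of its mRNA. The kinases that phosphorylate SR proteins and the importin that carries them into the nucleus had 2 of 9 genes above 0 (51.6% of tested genes). PRPF4B, a kinase of the spliceosome, had 50.8 and 45.1 CPM in the anti-GAA libraries and 73.0 and 63.3 CPM in the controls (log2 fold change −0.51, adjusted p = 0.996 in edgeR). SRPK2, an SR protein kinase, was at 0.46 with overlapping groups.

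Of 22 SR-related splicing proteins, 6 were above 0 and 16 below, with a median of −0.13. For this and the lists that follow, the share of all tested genes above 0 was 51.6%, and no list was tested as a set. RSRC2 had 85.9 and 83.7 CPM in the anti-GAA libraries and 125 and 148 CPM in the controls (log2 fold change −0.69, adjusted p = 0.922 in edgeR). THRAP3 was at 0.42, with both anti-GAA libraries above both controls. Of 26 hnRNP genes, whose products often oppose SR proteins at exons, 20 were above 0, with a median of 0.10, from HNRNPH3 at −0.26 to HNRNPUL1 at 0.42. The hnRNP median was −0.034 between libraries numbered 1 and 0.24 between those numbered 2. Of 22 U1 and U2 snRNP proteins, 15 were above 0, with SF3B4 at 0.77 (36.9 and 25.2 CPM against 21.7 and 14.7 CPM). SF3A2, at under 2 CPM, was at −0.71 (standard error 0.50), and its counts carry the same limit as those of SRSF10. Of 14 tested genes of nonsense-mediated decay and the exon junction, 6 were above 0, with UPF2 at −0.86 (41.5 and 22.9 CPM against 58.0 and 58.3 CPM) and EIF4A3 at 0.36.

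Within these 95 genes, a GAA run of at least 12 nt marked 6 genes, and all 6 had a log2 fold change below 0 and were lower with the anti-GAA ASO in both replicate numbers. They are PRPF4B, UPF2, SRRM2, ACIN1, RSRC1 and U2AF2, the last 4 named for their runs, and their median was −0.33. Over all tested genes, 67.6% of those with 12 to 14 nt and 84.0% of those with 15 nt or more were below 0, and 4540 of 15116 genes were lower in both replicate numbers whatever their run. UPF2 held 16 nt and PRPF4B 12 nt. Of the 89 genes without such a run, 39 were below 0, and their median was 0.057. SRSF11 was also lower in both replicate numbers, at −0.048 and −0.32 in log2 CPM, whereas SRSF4, at −0.098 and 0.031, was not. The difference between SRSF11 and SRSF4 was not tested.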

How the data were processed

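Per the labels and the study's methods, the authors used Trimmomatic for trimming, STAR for alignment to hg19 and featureCounts for counting on Ensembl genes, after discarding alignments to GL contigs. The deposited values are raw counts, without normalization, for 63677 genes in 4 libraries, and 0 columns were left unused. The Ensembl release, the strand setting and how multiply matching reads were handled are not given in the sources used here. Library totals were 10538284 to 17894953 counts.

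Tests were run in edgeR 4.0.16 under R 4.3.3 (filterByExpr, TMM, quasi-likelihood F-test, condition as the only term, Benjamini-Hochberg over 15116 genes, threshold 0.05) and in DESeq2 1.42.0 as an alternative. The standard error is the log2 fold change divided by the square root of F, and intervals (95%) use the same degrees of freedom. Log2 CPM took a prior count of 2. Symbols, exons, transcripts and positions are from GENCODE 44 on GRCh38, joined by Ensembl identifier (52181 of 63677 genes), and no position was carried over from hg19, so lengths and runs may differ from the transcripts counted.

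The 10 genes and the lists were chosen with earlier results of these data known. Named beside the 10 genes is the gene of each other list with the smallest unadjusted p in each direction, and any gene named otherwise is said to be. Alternatives were DESeq2, other scalings and filters, the replicate number as a block, each library left out in turn on the genes kept in the full set, an unadjusted threshold, another gene length and other searches for GAA runs. Groups of 2 libraries cannot be tested for outliers.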

Additional observations from a re-analysis of the deposited data

How the results depend on the processing

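Under none of the alternatives did any of the 10 genes pass an adjusted p of 0.05, and the smallest was 0.557, for SRSF5 with the replicate block. The count over all genes was 0 in edgeR, 5 in DESeq2 (0 higher), 116 with no filter (111 lower and 5 higher), 258 with the replicate number as a block (51 higher, 207 lower) and 677 without adjustment, and was 0 when each library was left out. In the other lists the block called 4 genes (PPIG, RSRC2 and UPF2 lower, SF3B4 higher; PPIG named after its values were seen), against 0 without it. The labels give both conditions the same replicate numbers without naming a shared culture or day, and deviations from the condition means correlated between libraries of the same number across genes (Pearson's r = 0.564, genes not being independent replicates). With the block, 1.71% of tested genes and 0 of the 10 were called, at log2 fold changes from −0.18 to 0.19. The 95% interval of SRSF4 was −0.33 to 0.26 with the block and −0.51 to 0.44 without it. Genes with a run of 15 nt or more had a median of −0.42 and quartiles at −0.73 and −0.089 in the fit without the block. SRSF4 was not tested against them in either fit. Scaling to total counts left 2 of the 10 above 0 and turned TRA2B (−0.066), SRSF2 (−0.059) and SRSF6 (−0.048), while the median of all genes moved from 0.013 to −0.081. Leaving out each library gave 1 to 8 genes above 0. It also turned TRA2A (−0.50 to 0.46), TRA2B (−0.086 to 0.14), SRSF1 (−0.19 to 0.54), SRSF2 (−0.13 to 0.20), SRSF3 (−0.22 to 0.098), SRSF4 (−0.14 to 0.070), SRSF6 (−0.15 to 0.25) and SRSF11 (−0.39 to 0.019). SRSF5 and SRSF7 kept their direction throughout. Of 100 values under alternatives, 17 changed sign, and the cause was not tested. The median of the 10 stayed between −0.15 and 0.16.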

Other observations

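Processed pseudogenes of the 10 genes in the annotation, 9 in all, received 33 to 95 counts per library, or 0.114% to 0.196% of the counts of the 10 genes. An antisense lncRNA overlapping SRSF11 (ENSG00000228988) had 8 and 3 counts in the anti-GAA libraries and 1 and 0 counts in the controls, where SRSF11 itself had 1761 to 2835 counts.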
